A study of Mus musculus with 17 samples.

Results

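The genes described here are the heat shock proteins and J-domain cochaperones of the mouse. They were chosen by name: the protein-coding genes of the count table whose symbol starts with Dnaj or Hsp90, or with Hspa, Hspb, Hspd, Hspe or Hsph followed by a digit. Of 55486 gene identifiers in the table, 86 matched, 14 of these were pseudogenes or other types and were left out, and 72 members remained among 21973 protein-coding genes. Of the 72 members, 63 had enough counts to be tested. The other 9 (Dnajb13, Dnajb3, Dnajb7, Dnajb8, Dnajc22, Dnajc5b, Dnajc5g, Dnajc6 and Hspb9) had at most 8 counts in any library, and Dnajb7 and Dnajb8 had none.

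RNA was sequenced from ventricular cardiomyocytes isolated from mice at postnatal day 60. The cells carried a loss of function of MBNL1 (KO), a muscleblind RNA-binding protein that regulates splicing and transcript stability, or were controls (WT). They were plated on laminin for 3 h and their transcription was then blocked with 2 µg/mL of actinomycin D. They were harvested at baseline and after 4 and 8 h. Each group had 3 libraries except WT at 4 h, which had 2, for 17 in all. The study asked which transcripts have a stability that depends on MBNL1. The labels do not name the allele or any promoter or Cre behind the loss of function, nor whether each library is an animal of its own, so p-values measure only the spread between these samples, which may be technical.

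Heat shock proteins are molecular chaperones that bind unfolded or client proteins and help them fold, move or be degraded. HSP70 proteins work in cycles of ATP hydrolysis that J-domain proteins (the DNAJ families A, B and C) start, and HSP90 proteins act later on many kinases and steroid receptors. Small heat shock proteins hold unfolding proteins without ATP and are abundant in muscle, the chaperonin of HSPD1 and HSPE1 folds proteins in the mitochondrial matrix, and HSPA5 and HSP90B1 do their work in the endoplasmic reticulum (ER). Heat shock factor HSF1 raises the cytosolic chaperones under protein stress, and the unfolded protein response raises those of the ER.

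Promoter windows are shown for 5 genes on which the results turn, since the 2 stress responses act through different promoter letters. They run from 250 bases before to 50 after the annotated start (RefSeq, GRCm38.p6), and 58 of the 72 members had one. The first 3 belong to ER chaperones and hold, in capitals, the ER stress element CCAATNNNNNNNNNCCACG or its reverse complement. The next 2 belong to a mitochondrial chaperonin gene and an inducible HSP70 gene and hold, in capitals, pairs of heat shock element units, GAANNTTC or TTCNNGAA, which overlap each other in Hspe1.

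Hspa5, chr2:34771840-34772139, forward strand: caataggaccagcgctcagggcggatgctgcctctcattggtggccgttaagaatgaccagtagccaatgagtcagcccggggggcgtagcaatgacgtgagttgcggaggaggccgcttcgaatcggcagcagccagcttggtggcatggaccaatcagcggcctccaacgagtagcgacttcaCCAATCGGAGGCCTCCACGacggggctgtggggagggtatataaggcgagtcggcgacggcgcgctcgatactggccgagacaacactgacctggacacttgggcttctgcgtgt
Hsp90b1, chr10:86705395-86705694, reverse strand: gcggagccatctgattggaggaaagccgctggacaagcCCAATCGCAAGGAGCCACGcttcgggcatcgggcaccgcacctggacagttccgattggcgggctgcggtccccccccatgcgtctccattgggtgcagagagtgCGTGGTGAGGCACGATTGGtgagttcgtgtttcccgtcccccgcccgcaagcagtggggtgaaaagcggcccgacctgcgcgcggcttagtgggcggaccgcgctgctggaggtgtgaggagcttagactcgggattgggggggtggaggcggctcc
Dnajc3, chr14:118937682-118937981, forward strand: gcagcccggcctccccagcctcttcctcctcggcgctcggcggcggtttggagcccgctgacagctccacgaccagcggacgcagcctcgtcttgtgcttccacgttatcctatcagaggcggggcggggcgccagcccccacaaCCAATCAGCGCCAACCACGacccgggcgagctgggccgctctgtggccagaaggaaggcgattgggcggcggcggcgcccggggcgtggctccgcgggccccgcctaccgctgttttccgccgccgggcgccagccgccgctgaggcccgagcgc
Hspe1, chr1:55087898-55088197, forward strand: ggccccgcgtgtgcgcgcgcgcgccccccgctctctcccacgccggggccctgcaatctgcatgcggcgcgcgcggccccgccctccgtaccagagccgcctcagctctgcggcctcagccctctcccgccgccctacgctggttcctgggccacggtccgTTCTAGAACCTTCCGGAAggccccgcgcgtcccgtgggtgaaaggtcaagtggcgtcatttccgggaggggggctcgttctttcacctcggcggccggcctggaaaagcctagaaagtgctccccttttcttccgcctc
Hspa1b, chr17:34959189-34959488, reverse strand: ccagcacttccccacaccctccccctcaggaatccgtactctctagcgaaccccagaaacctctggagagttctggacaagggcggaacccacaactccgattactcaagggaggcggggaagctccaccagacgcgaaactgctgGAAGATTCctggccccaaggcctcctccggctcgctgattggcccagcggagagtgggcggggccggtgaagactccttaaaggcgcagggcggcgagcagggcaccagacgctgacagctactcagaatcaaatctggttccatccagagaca

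The ER stress element was present in the windows of 3 of the 58 members, Hspa5, Hsp90b1 (with 2 copies) and Dnajc3, and in 0.137% of all 27025 genes with a window. The heat shock element pair was present in 16 of the 58 members (27.6%), in 8 of the 10 inducible members with a window, and in 4587 of all 27025 genes with a window (17%). A run of 3 alternating units was found in Dnajb6, Hspd1, Hspe1 and Hsph1 and in 0.662% of those genes. Hspd1 and Hspe1 lie head to head, and their windows share 285 bases. The Hspa1a window matched that of Hspa1b at 296 of 300 positions. The windows of Dnajb1, Dnajb9 and Dnajb11 held none of these letters. Such matches describe the letters of a window and not the binding of a factor.

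Library totals ran from 17058419 to 17968827 counts, and mitochondrially encoded genes took 35.1 to 43.3% of each library. Levels are given as CPM, counts relative to the scaled library total. Mbnl1 itself had 93.9 to 106 CPM in the 9 KO libraries, and 85.7 to 92.9 CPM in the 8 WT libraries. One count per gene cannot reveal a partial deletion, so this does not check the genotype. Esr1, the oestrogen receptor gene, had 2250 to 2600 CPM in KO and at most 3.34 CPM in WT, and the labels give no reason for that difference. Summed cardiomyocyte markers were at 57400 to 60500 CPM in KO and 43300 to 47300 CPM in WT at baseline. Summed fibroblast markers were at 13.4 to 15.4 against 28.5 to 29.3 CPM, macrophage markers at 27.7 to 30.5 against 63.0 to 72.1 CPM and endothelial markers at 145 to 168 against 190 to 196 CPM. Pericyte and smooth muscle markers were at 130 to 139 against 128 to 140 CPM and erythroid markers at 4.38 to 6.0 against 6.9 to 9.36 CPM, and no marker was at 0 in every library. The part of these differences in the results was not tested, and in bulk samples fewer cells of a type and less RNA per cell cannot be told apart.

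At WT baseline the most abundant members per kilobase of exon were Hspb7 (474 CPM per kb), Hspb8 (272), Hsp90ab1 (258), Hspa8 (236) and Hspb6 (222), so 3 of the leading 5 were small heat shock proteins. Hspa9, Hspa5 and Hspd1 followed at 171, 161 and 138 CPM per kb. The class A cochaperones Dnaja2 and Dnaja3 stood at 56.9 and 34.1 CPM per kb. The stress-inducible Hspa1a and Hspa1b, the classical heat shock HSP70 genes, were at 4.73 and 8.59 CPM per kb, far below the constitutive Hspa8.

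In untreated cells the genotypes differed in many members and in both directions. By edgeR's quasi-likelihood test at an adjusted p of 0.05 (Benjamini-Hochberg over 13229 genes), 36 of the 63 tested members were called, against 36.6% of all genes. Of these 18 were higher in KO, against 18.8% of all genes, and 18 were lower, against 17.9%. The members' median log2 fold change was -0.02, the same as that of all genes, so the set had no common direction. All fold changes compare shares of a library. Scaled by library size alone the split was 7 higher and 37 lower, and scaled by ribosomal protein counts 2 and 46, and the all-gene median itself shifted by -0.21 and -0.33 under them.

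After 4 h 30 members were called (32.0% of all genes), 12 higher (14.6% of all genes) and 18 lower (17.4%). After 8 h 30 were called again (27.6% of all genes), 12 higher (13.9%) and 18 lower (13.7%). With library size alone these splits were 10 higher and 22 lower at 4 h and 4 and 27 at 8 h, and with ribosomal protein scaling they were 0 and 47, and 4 and 21. Called lower at all 3 times were 13 members, against 6.92% of all genes, and higher at all 3 times 7, against 7.62%. No member was called higher at 1 time and lower at another.

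Library size and ribosomal protein scaling moved the fold changes of all genes downward, so lower calls outlast higher ones across settings by construction. Under 5 settings (TMM, RLE and library size scaling, ribosomal protein scaling, and DESeq2), 16 members were lower each time at baseline (11.9% of all genes), 16 at 4 h (11.3%) and 15 at 8 h (8.61%). Higher under all 5 were Dnajb5 and Hspe1 at baseline (3.6% of all genes), none at 4 h (2.45%), and Dnajb5, Dnajc7, Hspd1 and Hspe1 at 8 h (7.0%). Over all genes 1569 were lower and 476 higher under all 5 at baseline. Leaving out a library did not end the 3 calls, under TMM scaling, of Hspa1a, Hspa1b, Hspa5, Hsp90b1, Dnajb9, Dnajb11, Hspd1, Hspe1 or Dnajb5.

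**Figure D1:**
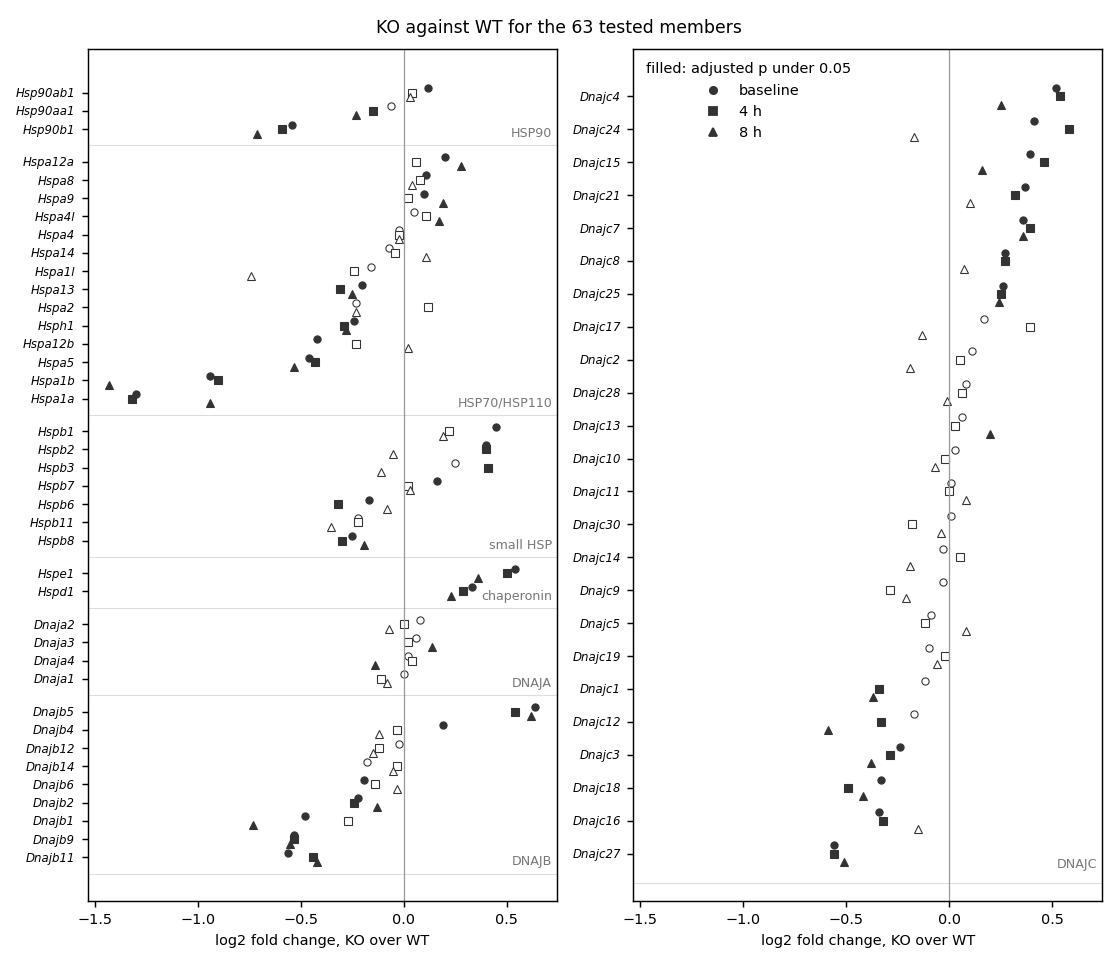
Log2 fold change of KO over WT (x axis) for each of the 63 tested members, grouped by family, at baseline (circles), 4 h (squares) and 8 h (triangles), with filled symbols for an adjusted p under 0.05. Hspa1a and Hspa1b lie furthest to the left, the chaperonin genes Hspe1 and Hspd1 lie right of 0 at each time, and Hsp90b1, Hspa5, Dnajb9 and Dnajb11 lie left of it.

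More ER members were called lower than higher in KO. The ER members here are a chosen list of 11, which may not hold every member of that compartment. Of these 11, 6 were lower and 1 was higher at baseline, and 7 were lower and 1 was higher at 4 h and at 8 h. Over all genes 17.9% were lower and 18.8% higher at baseline, and 17.4% and 13.7% were lower at 4 and 8 h. With library size alone 10, 7 and 8 of the 11 were lower at the 3 times, with ribosomal protein scaling 10, 10 and 7, and none was higher with either. Their median log2 fold changes were -0.20, -0.31 and -0.37, against -0.02, -0.04 and -0.02 over all genes. The member called higher was Dnajc25, a membrane-bound J-domain protein, at 0.26, 0.25 and 0.24; its 4 h call was lost without either of 2 single libraries and its 8 h call without any of 3. Dnajb12, Dnajb14 and Dnajc10 were not called at any time, and Dnajc1 was called lower at 4 h (-0.34) and 8 h (-0.37) but not at baseline.

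Hspa5 encodes BiP, the HSP70 of the ER (chromosome 2, 34771970 to 34777547, GRCm38). It was at 675, 669 and 703 CPM in the WT baseline libraries and 499, 486 and 508 CPM in KO. The highest KO library thus lay below the lowest WT library, and the log2 fold change was -0.46 ± 0.04 (SE, edgeR adjusted p = 1.8e-14). At 4 h Hspa5 was at 688 and 736 CPM in WT and 514, 532 and 536 CPM in KO, and at 8 h at 750, 706 and 776 against 505, 537 and 500 CPM. The genotypes did not overlap at either time, with log2 fold changes of -0.43 ± 0.05 and -0.53 ± 0.04 (SE).

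Hsp90b1, the HSP90 of the ER also known as GRP94 (chromosome 10, 86690209 to 86705509), was at 273, 259 and 268 CPM in WT and 184, 182 and 183 CPM in KO at baseline. It was at 340, 323 and 337 CPM in WT and 202, 205 and 204 CPM in KO at 8 h. All KO libraries lay below all WT libraries at both times. The log2 fold changes were -0.54 ± 0.04 (SE, edgeR adjusted p = 1.5e-17) at baseline, -0.59 ± 0.05 at 4 h and -0.71 ± 0.04 at 8 h.

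The 3 J-domain partners of BiP Dnajb9, Dnajb11 and Dnajc3 were lower too. Dnajb9 (ERdj4), which binds misfolded ER proteins, was at 35.5, 42.7 and 41.5 CPM in WT and 28.3, 27.4 and 27.5 CPM in KO at baseline, a log2 fold change of -0.53 ± 0.07. Dnajb11 (ERdj3), a soluble cofactor of BiP, was at 32.3, 32.9 and 36.0 CPM in WT and 24.6, 21.6 and 22.4 CPM in KO (-0.56 ± 0.07). Dnajc3 (p58IPK), a BiP cofactor in the ER lumen, was at 34.6, 31.6 and 30.8 against 27.3, 26.0 and 28.6 CPM (-0.24 ± 0.06). None of the 3 overlapped between genotypes at baseline, and the share of all genes without overlap was not counted. All 3 were called lower at 4 h (-0.53, -0.44 and -0.29) and 8 h (-0.55, -0.42 and -0.38). The baseline call of Dnajc3 was lost without WT replicate 1 (-0.17, edgeR adjusted p = 0.0576). Outside the member set, Hyou1, the HSP110 of the ER, was lower as well, with 18.0 ± 0.954 CPM in KO against 26.0 ± 1.60 CPM in WT at baseline (SD over 3 libraries each), with log2 fold changes of -0.53, -0.58 and -0.58. Hspa13, another microsomal HSP70, was called lower each time at -0.20, -0.31 and -0.25, but its baseline call was lost without any 1 of the 6 libraries compared, its 4 h call without either WT library and its 8 h call without KO replicate 2 or WT replicate 3.

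The mitochondrial chaperonin went the other way. Hspd1, the 60 kDa subunit (chromosome 1, 55077835 to 55088243), was at 372, 360 and 362 CPM in WT and 463, 466 and 449 CPM in KO at baseline. At 8 h it was at 441, 455 and 447 CPM in WT and 525, 535 and 514 CPM in KO. KO lay above WT in all libraries, with log2 fold changes of 0.33 ± 0.04 (SE, edgeR adjusted p = 3.4e-10), 0.29 ± 0.04 and 0.23 ± 0.04 at the 3 times.

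Its 10 kDa partner Hspe1 (chromosome 1, 55088132 to 55091307) was at 60.4, 49.8 and 52.7 CPM in WT and 78.3, 77.7 and 80.5 CPM in KO at baseline. The groups did not overlap there or later, and the log2 fold changes were 0.54 ± 0.06 (SE, edgeR adjusted p = 8.7e-11), 0.50 ± 0.07 and 0.36 ± 0.06. The pair overlap at their start sites on opposite strands, and whether counting used strand is not given. With ribosomal protein scaling Hspd1 did not differ at baseline (0.00, adjusted p = 0.957) while Hspe1 kept its call (0.21, adjusted p = 0.00956).

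Of the 9 members on a chosen mitochondrial list, 4 were higher in KO at baseline, 3 at 4 h and 5 at 8 h, and none was lower. Over all genes 18.8%, 14.6% and 13.9% were called higher. With library size alone 3 of the 9 were higher and 4 lower at baseline, 3 and 1 at 4 h, and 2 and 0 at 8 h. With ribosomal protein scaling these counts were 1 and 6, 0 and 6, and 2 and 0. The others higher at baseline were Hspa9, the mitochondrial HSP70 (0.10, with overlapping libraries, lost without any of 3 single libraries), and Dnajc15, a cofactor of the inner membrane import motor (0.39). Dnajc15 was at 58.8, 50.8 and 49.8 CPM in WT and 65.5, 68.5 and 74.3 CPM in KO at baseline, with no overlap. Its 8 h difference of 0.16 was lost without any of 4 single libraries. Dnaja3, the mitochondrial class A protein, was called at 8 h (0.14), and lost that call without KO or WT replicate 1.

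**Figure D2:**
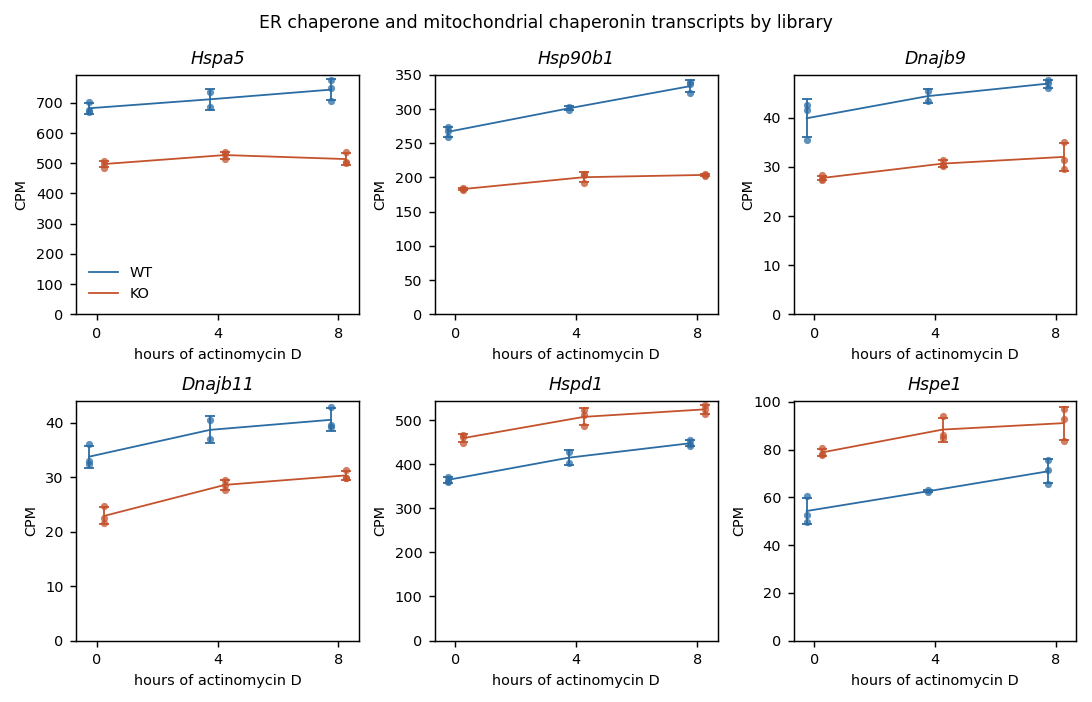
CPM (y axis, from 0) against hours of actinomycin D (x axis) for 4 ER chaperone genes and the 2 chaperonin genes; points are libraries, lines join group means and bars are SD. WT lies above KO for Hspa5, Hsp90b1, Dnajb9 and Dnajb11 and below it for Hspd1 and Hspe1 at each time.

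Ratios of counts within a library do not depend on the scaling. Hspd1 had 252, 255 and 245 counts per 100 Hsp90b1 counts in KO at baseline, against 136, 139 and 135 in WT. The same ratio was 252 to 255 against 135 to 141 at 4 h and 252 to 261 against 130 to 141 at 8 h. Hspe1 had 15.7 to 16.0 counts per 100 Hspa5 counts in KO at baseline and 7.45 to 8.95 in WT, then 16.2 to 17.6 against 8.55 to 9.03 at 4 h and 15.6 to 19.4 against 9.29 to 9.77 at 8 h. No KO library overlapped a WT library in either ratio. Both ratios were thus higher in all 9 KO libraries than in all 8 WT libraries. Each sets a gene called higher in KO over a gene called lower in the same libraries. The gap therefore restates those calls without scaling and is no separate evidence for them, and other pairs were not computed.

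**Figure D3:**
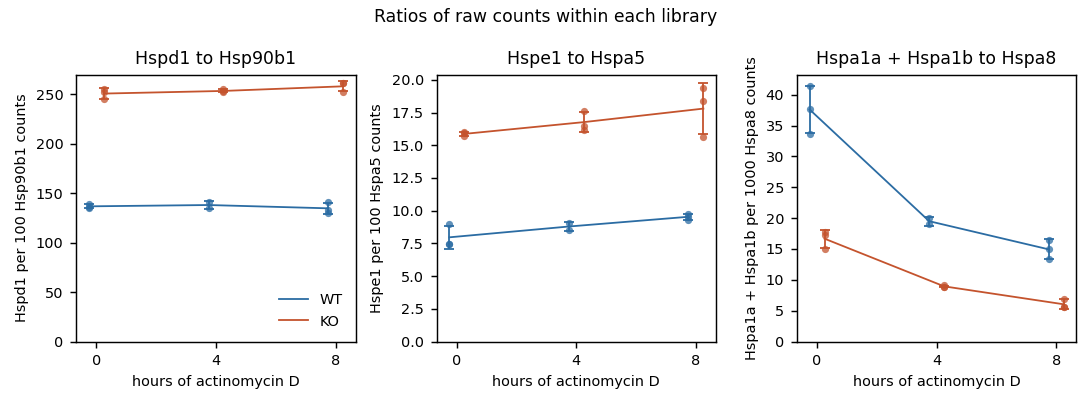
Ratios of raw counts within each library (y axes, from 0) against hours of actinomycin D (x axis); points are libraries, lines join group means and bars are SD. KO lies above WT for Hspd1 to Hsp90b1 and for Hspe1 to Hspa5, and below WT for Hspa1a plus Hspa1b to Hspa8.

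The stress-inducible HSP70 genes were the members furthest below WT. Hspa1a (chromosome 17, 34969190 to 34972156) was at 13.2, 14.3 and 14.7 CPM in WT and 5.24, 5.76 and 6.17 CPM in KO at baseline, a log2 fold change of -1.30 ± 0.11 (SE, edgeR adjusted p = 3.0e-16). Hspa1b (chromosome 17, 34956436 to 34959238) was at 28.1, 21.2 and 22.9 against 11.6, 12.8 and 13.2 CPM, or -0.94 ± 0.09 (SE, edgeR adjusted p = 3.0e-13). The genotypes did not overlap for either gene at any time.

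The 2 genes share sequence: 47.1% of the 100-base stretches of the Hspa1a transcript occur in Hspa1b, and 49.9% the other way. How reads with several positions were counted is not given, so the split between them is uncertain and their sum is the safer value. The sum was at 41.3, 35.5 and 37.6 CPM in WT and 16.8, 18.5 and 19.3 CPM in KO at baseline. Per 1000 counts of the constitutive Hspa8, it was 33.7 to 41.4 in WT and 15.0 to 17.7 in KO.

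Dnajb1, the class B partner that HSF1 induces with them, was at 17.4, 17.7 and 18.0 CPM in WT and 13.0, 12.5 and 12.6 CPM in KO at baseline. It did not overlap between genotypes, at -0.48 ± 0.09 (SE, edgeR adjusted p = 7.4e-06), was not called at 4 h (-0.27, adjusted p = 0.0637) and was lower at 8 h (-0.73 ± 0.12). Hsph1, the cytosolic HSP110 that recharges HSP70, was lower each time at -0.24, -0.29 and -0.28, with the 4 h call lost without WT replicate 2 at 4 h (-0.14, adjusted p = 0.239). Hsp90aa1, the inducible cytosolic HSP90, was not called at baseline (-0.06) and was lower at 4 h (-0.15) and 8 h (-0.23). The 4 h call was lost without any of 4 single libraries.

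Other inducible members were higher in KO at baseline. Of the 13 in the inducible set 6 were higher (Hspa8, Hsp90ab1, Hspb1, Dnajb4, Hspd1 and Hspe1), against 18.8% of all genes. The 4 lower were Hspa1a, Hspa1b, Hsph1 and Dnajb1, against 17.9% of all genes. Under TMM scaling the set thus did not move as 1 group. With library size alone 3 of the set were higher and 7 lower, and with ribosomal protein scaling 1 and 9. Hspa8 and Hsp90ab1, the constitutive cytosolic HSP70 and HSP90, differed by 0.11 and 0.12. Both calls reversed in sign with library size alone (-0.10 and -0.09) and with ribosomal protein scaling (-0.22 and -0.21). Both calls were also lost without KO baseline replicate 1, that of Hsp90ab1 without KO baseline replicate 3 too, and neither gene was called at 4 or 8 h.

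The small heat shock proteins were split. Hspb1 (HSP27), which binds actin filaments, was at 95.1, 89.7 and 105 CPM in WT and 121, 121 and 154 CPM in KO at baseline, with no overlap (0.45 ± 0.09), and was not called at 4 h (0.22, edgeR adjusted p = 0.102) or 8 h (0.19, adjusted p = 0.121). Hspb7, a cardiac filamin-binding member and the most abundant per kilobase, was at 1370, 1350 and 1210 against 1430, 1480 and 1490 CPM. Its difference of 0.16 turned to -0.04 with library size alone and to -0.17 with ribosomal protein scaling. Hspb8, a partner of BAG3 in selective autophagy, was lower each time, at 525, 531 and 534 CPM in WT and 456, 436 and 446 CPM in KO at baseline (-0.25 ± 0.04), then -0.30 and -0.19. Hspb6 (HSP20) was lower at baseline (-0.17) and 4 h (-0.32) and not called at 8 h (-0.08). Its baseline call was lost without WT replicate 1 (-0.09, edgeR adjusted p = 0.154).

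Among the remaining J-domain genes, Dnajb5, a class B member related to DNAJB1, had the largest positive fold change of all members at baseline. It was at 44.3, 46.2 and 44.4 CPM in WT and 69.1, 70.7 and 70.5 CPM in KO, without overlap, at 0.64 ± 0.05 (SE, edgeR adjusted p = 1.8e-15). It was also higher at 0.54 and 0.62, and at 0.31 at baseline with ribosomal protein scaling (edgeR adjusted p = 2.51e-04).

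Dnajc4 was higher at each time (0.52, 0.54 and 0.25), at 16.2, 15.1 and 14.0 CPM in WT and 21.4, 22.3 and 21.5 CPM in KO at baseline. Dnajc7, a cochaperone with tetratricopeptide repeats that binds both HSP70 and HSP90, was higher at 0.36, 0.39 and 0.36, though its exons overlap those of genes on the other strand. In all, 28 of the 72 members share exonic bases with another gene. Lower at all 3 times were Dnajc27, a Rab-like GTPase with a J domain (-0.56, -0.56 and -0.51), Dnajc18 (-0.33, -0.49 and -0.42) and Dnajb2 (-0.22, -0.24 and -0.13). The 8 h call of Dnajb2 was lost without any 1 of the 6 libraries compared. None of the 4 class A genes was called at baseline or at 4 h.

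The factors that work with these chaperones were read from a list of 50 genes that are no members, all tested. In KO 26 were higher and 3 lower at baseline, 22 and 3 at 4 h, and 13 and 8 at 8 h, with medians of 0.18, 0.10 and 0.07. Over all genes 18.8% were higher and 17.9% lower at baseline, 14.6% and 17.4% at 4 h, and 13.9% and 13.7% at 8 h, with medians of -0.02, -0.04 and -0.02. The direction depended on the scaling. Scaled by library size alone, 9 of the list were higher and 14 lower at baseline, and scaled by ribosomal protein counts 4 and 24. At 4 h library size alone kept the direction, with 17 higher and 5 lower, and ribosomal protein scaling gave 1 and 30. At 8 h the 2 scalings gave 3 and 10, and 4 and 7. Fkbp5, a cochaperone of HSP90 that restrains steroid receptors, stood furthest from WT. Its baseline level was 12.0 ± 0.807 CPM in KO against 2.62 ± 0.401 CPM in WT (SD over 3 libraries each), with log2 fold changes of 2.18, 2.12 and 2.14 at the 3 times. The nucleotide exchange factor Bag1 (0.62, 0.52 and 0.24), the ubiquitin ligase Stub1 (0.61, 0.44 and 0.26) and the HSP70 regulator Hspbp1 (0.51, 0.51 and 0.36) were higher too. So were the mitochondrial HSP90 Trap1 (0.36, 0.29 and 0.16) and the exchange factor of mitochondrial HSP70, Grpel1 (0.38, 0.37 and 0.18). The HSP90 cochaperone Chordc1 was lower, at -0.33, -0.30 and -0.33. Hsf1 and Hsf2 were not called at any of the 3 times.

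During the block more members were called higher than lower, in both genotypes under TMM scaling. In WT 29 members were called at 4 h (28.5% of all genes), 25 higher (15.9% of all genes) and 4 lower (12.6%). At 8 h 43 were called (51.8% of all genes), 35 higher (25.0%) and 8 lower (26.8%). In KO 23 were called at 4 h (24.9% of all genes), 18 higher (11.4%) and 5 lower (13.5%), and 38 at 8 h (44.6% of all genes), 29 higher (21.4%) and 9 lower (23.2%). The 8 h medians were 0.23 in WT and 0.15 in KO, against -0.03 and -0.02 over all genes. Cardiomyocyte markers moved with them: 8 of 10 were higher at 8 h in WT (median 0.50) and 9 of 10 in KO (0.38), and their sum reached 58800 to 65400 CPM in WT and 72000 to 77600 CPM in KO. All 7 tested fibroblast markers and all 8 endothelial markers were lower in both genotypes, as were all 8 macrophage markers in WT and 5 of 8 in KO. Summed fibroblast markers were at 11.7 to 15.4 CPM in WT and 5.6 to 7.7 CPM in KO at 8 h, and macrophage markers at 13.5 to 15.6 and 18.9 to 22.2 CPM. Their part in the members' changes was not tested. From 4 to 8 h 16 members changed in WT (18.5% of all genes) and 7 in KO (8.59%). The WT count was 7 without WT replicate 1 at 4 h and 9 without WT replicate 1 at 8 h, and the KO count was 4 without KO replicate 3 at 4 h.

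This direction depended on the scaling. With RLE scaling 38 members were higher and 7 lower in WT at 8 h and 31 and 7 in KO, and with DESeq2 36 and 6, and 28 and 7. With library size alone 15 members were higher and 19 lower in WT at 8 h and 10 and 10 in KO, and with ribosomal protein scaling 0 were higher in either genotype and 53 and 39 were lower. At 4 h the splits were 2 and 9 in WT and 10 and 5 in KO with library size alone, and 1 and 8 and 0 and 11 with ribosomal protein scaling. The all-gene median at 8 h shifted with them, by -0.21 and -0.66 in WT and by -0.11 and -0.39 in KO. The WT 4 h count also fell to 16 without replicate 1 and to 14 without replicate 2 of WT at 4 h, and to 19 without WT baseline replicate 2. Cultures kept for 4 or 8 h without actinomycin D were not analysed here, so decay and time in culture cannot be told apart.

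Called higher at 8 h in both genotypes were 26 members, against 17.1% of all genes. None was higher under all 5 settings in WT (0.378% of all genes) or in KO (0.212%). By family, 15 of 24 DNAJC genes, 8 of 11 ER members and 7 of 9 mitochondrial members were higher at 8 h in WT (25.0% of all genes), and 11, 5 and 7 in KO (21.4%). Of the 9 DNAJB genes 3 were higher and 2 lower in WT and 3 and 3 in KO, and of the 14 HSP70 and HSP110 genes 5 and 4 in WT and 4 and 4 in KO. Hsp90ab1 was at 761, 766 and 791 CPM in WT at baseline and 1060, 1050 and 1070 CPM at 8 h, without overlap, and in KO at 850, 807 and 857 and then 1100, 1100 and 1050 CPM. Its log2 fold changes were 0.45 ± 0.04 and 0.37 ± 0.04. Hspb6 went from 549, 516 and 469 CPM to 681, 682 and 661 CPM in WT (0.40 ± 0.04) and from 456, 454 and 456 to 617, 630 and 670 CPM in KO (0.49 ± 0.05).

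Hspb1 had the largest rise of all tested members in WT, to 154, 147 and 167 CPM at 8 h (0.69 ± 0.09), and reached 174, 177 and 185 CPM in KO (0.44 ± 0.09). In WT Dnajc21, a factor of ribosome assembly, went from 22.4, 21.9 and 20.0 to 33.5, 29.9 and 34.3 CPM (0.60 ± 0.07). Dnajc2, which binds ribosomes as part of their HSP70 complex, went from 15.9, 15.0 and 16.5 to 21.7, 20.6 and 25.2 CPM (0.51 ± 0.08). Dnajc12 went from 8.56, 8.32 and 9.58 to 13.6, 11.7 and 12.1 CPM (0.49 ± 0.10). The baseline and 8 h libraries did not overlap for any of these 4 genes in WT. They were picked for their large rises, and the share of all genes without overlap was not counted.

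Called lower at 8 h in both genotypes were 7 members, against 17.9% of all genes: Hspa1a, Hspa1b, Dnajb1, Dnaja1, Dnajb4, Dnajc14 and Hspa12b. Under all 5 settings 6 of them were lower in WT (21.0% of all genes), the exception being Dnajc14, and all 7 in KO (17.9% of all genes). The WT call of Dnajb4 was lost without WT baseline replicate 1 (-0.12, edgeR adjusted p = 0.0601) and that of Dnajc14 without any 1 of the 6 WT libraries compared. Of the 7, the first 5 are of the inducible set, of which Hspa8 (-0.11) was also lower in KO. That call of Hspa8 was lost without KO baseline replicate 1 (-0.09, edgeR adjusted p = 0.114) and without KO replicate 2 at 8 h (-0.1, edgeR adjusted p = 0.0703). Of the 13 in the inducible set 7 were higher and 5 lower at 8 h in WT, and 6 and 6 in KO. Over all genes 25.0% were higher and 26.8% lower in WT, and 21.4% and 23.2% in KO. With library size alone 3 of the set were higher and 6 lower in each genotype. With ribosomal protein scaling none of the set was higher, and 12 were lower in WT and 9 in KO. Under TMM scaling the share of members called lower at 8 h (12.7% in WT and 14.3% in KO) was below that of all genes. With ribosomal protein scaling 53 of 63 members and 11266 of 13229 genes were lower in WT. In KO 39 members and 8215 genes were lower with that scaling.

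Hspa1a went from 13.2, 14.3 and 14.7 CPM at WT baseline to 7.07 and 7.09 CPM at 4 h and 4.44, 4.35 and 4.16 CPM at 8 h (-1.70 ± 0.11, SE). In KO it went from 5.24, 5.76 and 6.17 to 3.07, 2.63 and 2.80 and then 1.75, 2.86 and 2.16 CPM (-1.34 ± 0.15). Each 8 h library lay below each baseline library of its genotype. The sum of Hspa1a and Hspa1b fell in WT to 20.0 and 19.2 CPM at 4 h and 16.2, 13.0 and 15.2 CPM at 8 h. In KO it fell to 9.55, 9.59 and 9.41 and then to 5.68, 6.96 and 5.77 CPM. Per 1000 Hspa8 counts it stood at 13.3 to 16.5 in WT and 5.54 to 6.94 in KO at 8 h, so the fall and the genotype gap were both present without scaling.

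Dnajb1 went from 17.4, 17.7 and 18.0 CPM to 9.71 and 10.3 and then 8.82, 10.2 and 7.79 CPM in WT (-0.98 ± 0.09). In KO it went from 13.0, 12.5 and 12.6 to 8.41, 7.54 and 8.87 and then 4.41, 5.47 and 6.31 CPM (-1.23 ± 0.11). The largest part of the fall in WT lay before 4 h: from 4 to 8 h WT was not called (-0.16, adjusted p = 0.376) and KO was (-0.61, adjusted p = 3.3e-04). Whether these late changes differ between genotypes was not tested. Dnaja1, the class A partner of HSP70, was not called at 4 h in either genotype and reached -0.29 ± 0.07 in WT and -0.37 ± 0.07 in KO at 8 h.

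Hspa12b, an HSP70-like gene of endothelial cells, had the largest fall of all members in WT. It went from 5.90, 5.10 and 5.22 CPM to 2.18 and 1.77 and then 1.48, 1.03 and 1.23 CPM in WT (-2.11 ± 0.19). In KO it went from 3.32, 4.32 and 4.44 to 1.59, 1.58 and 1.90 and then 1.03, 1.06 and 1.68 CPM (-1.67 ± 0.20). The endothelial marker list moved with it: all 8 of its 8 genes were lower at 8 h in both genotypes, and their sum went from 190 to 196 CPM in WT to 42.2 to 44.6 CPM, and from 145 to 168 to 41.8 to 47.0 CPM in KO. The part of endothelial cells in the fall of Hspa12b was not tested.

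**Figure D4:**
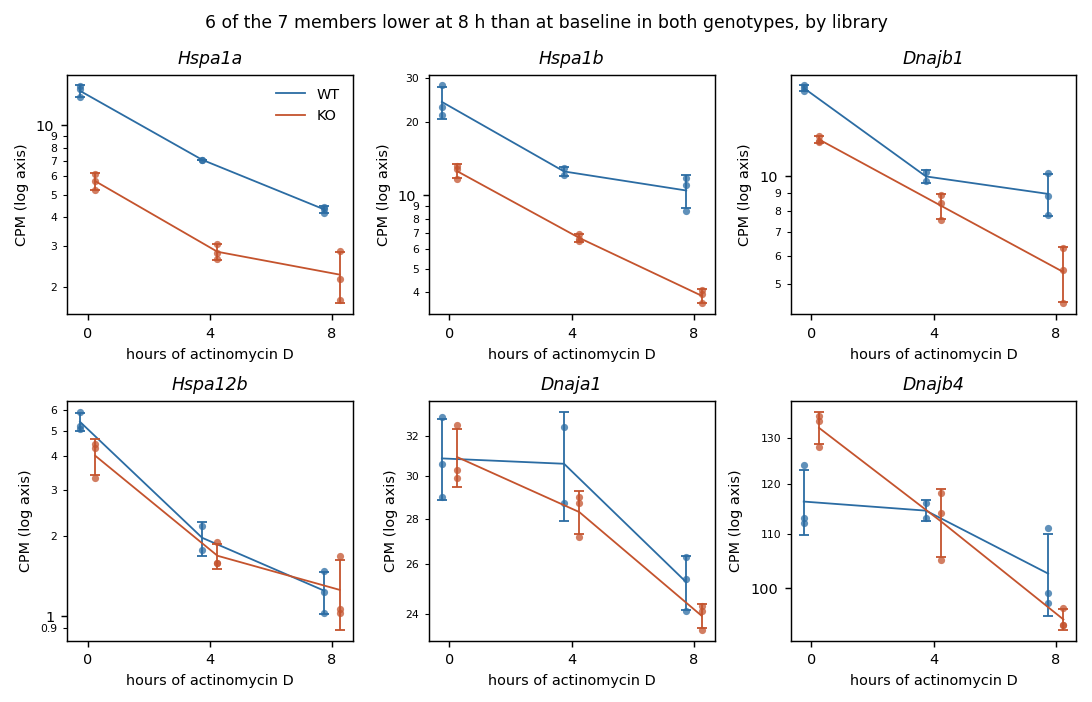
CPM on a log axis (y) against hours of actinomycin D (x) for 6 of the 7 members called lower at 8 h in both genotypes; points are libraries, lines join group means and bars are SD. Hspa1a, Hspa1b, Dnajb1 and Hspa12b fell by more than the others, and Hspa1a and Hspa1b started and ended lower in KO.

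The pentamer ATTTA, the core of AU-rich elements, was counted on the transcript strand of annotated 3′ UTRs. It was present in 4 of the 7 members that fell (57.1%), in 16 of the 26 that rose (61.5%) and in 68.1% of all tested genes with an annotated 3′ UTR. By density the order was the other way, with medians of 1.97 per kb in those that fell, 1.24 in those that rose and 1.29 in all. A link of the pentamer to the falls was not tested. Of the list of 50 cochaperone and factor genes, 36 were higher and 4 lower at 8 h in WT, and 27 and 6 in KO, against 25.0% and 26.8% of all genes in WT and 21.4% and 23.2% in KO. With library size alone 17 of the list were higher and 8 lower in WT, and 15 and 7 in KO. With ribosomal protein scaling none of the list was higher, and 45 were lower in WT and 31 in KO.

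Whether the change during the block differed between genotypes was tested as an interaction. At 4 h no member was called by edgeR (0.348% of all genes) or by DESeq2, and 3 had an unadjusted p under 0.05. At 8 h 18 had an unadjusted p under 0.05, and the share of all genes that did was not counted. After adjustment 2 were called at 8 h (5.2% of all genes), both with a more negative change in KO. The count was 4 without KO baseline replicate 1, 11 without WT baseline replicate 1 and 4 without WT baseline replicate 3, all negative, and 19, all positive, with ribosomal protein scaling. Dnajb4 went from 124, 112 and 113 CPM to 97.5, 111 and 99.2 CPM in WT and from 128, 135 and 134 to 93.7, 96.6 and 93.7 CPM in KO. Its change was more negative in KO by 0.30 ± 0.07 on the log2 scale, a difference of -0.30 (edgeR adjusted p = 0.00505).

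Hspb2, a muscle small heat shock protein, went from 31.4, 28.5 and 27.4 to 44.1, 42.3 and 36.5 CPM in WT and from 37.4, 34.7 and 43.3 to 36.6, 37.9 and 44.1 CPM in KO. The WT libraries rose without overlap while the KO libraries overlapped, and the difference was -0.45 ± 0.11 (SE, edgeR adjusted p = 0.00892). Its exons overlap those of the far more abundant Cryab on the other strand, so its reads are uncertain where strand was not used. The call of Dnajb4 was lost with library size alone (-0.20, adjusted p = 0.139) and with ribosomal protein scaling (-0.03, adjusted p = 0.863), and that of Hspb2 with ribosomal protein scaling (-0.18, adjusted p = 0.271). For the members furthest from WT the interaction at 8 h was not called: it was 0.36 ± 0.20 for Hspa1a, -0.49 ± 0.16 for Hspa1b (adjusted p = 0.0659), -0.08 ± 0.06 for Hspa5, -0.17 ± 0.06 for Hsp90b1 (adjusted p = 0.0777), -0.10 ± 0.06 for Hspd1 and -0.18 ± 0.08 for Hspe1.

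**Figure D5:**
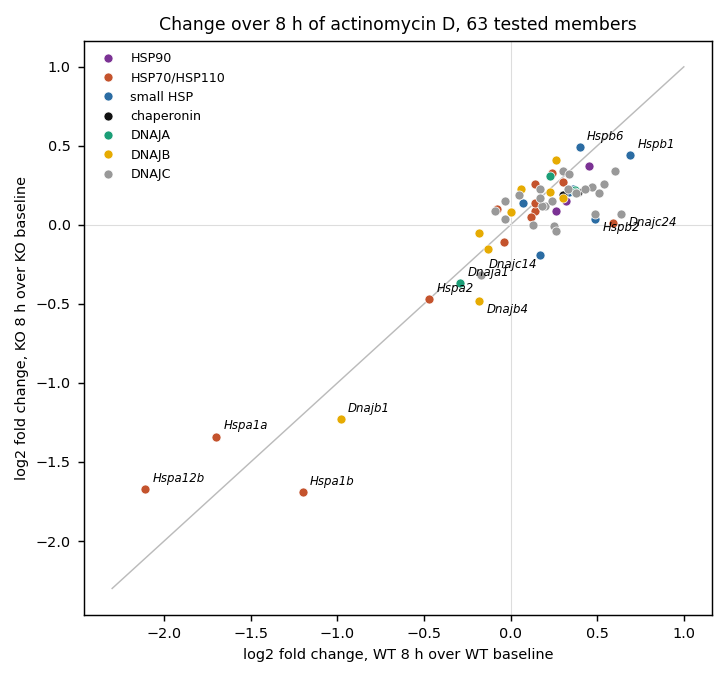
Log2 fold change over 8 h of actinomycin D in WT (x axis) and in KO (y axis) for the 63 tested members, coloured by family, with the line of equal change. The cluster above 0 on both axes holds the 26 members called higher in both genotypes, and Hspa12b, Hspa1a, Hspa1b and Dnajb1 lie far below 0 on both.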

How the data were processed

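The authors deposited 1 table of raw counts per gene, with no normalization. Per the submitters' processing notes, STAR, featureCounts, DESeq2, limma and the builds GRCm38 and mm10 were used, with no versions, roles or order. The strand setting of the counting and the handling of multi-mapped reads are not given in these sources. Symbols, lengths and 3′ UTRs were taken from GENCODE M21, and promoter windows from RefSeq (GRCm38.p6). 1 row that names no gene, with 0.0113% of counts, was left out. Of 55486 identifiers 55226 matched the annotation.

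Differences were tested with edgeR 4.0.16 in R 4.3.3: filterByExpr (which kept 99.93% of counts), TMM scaling, and a robust quasi-likelihood fit of 6 groups over 17 libraries, with Benjamini-Hochberg adjustment over 13229 genes in each comparison and calls at an adjusted p of 0.05. The standard error is the absolute log2 fold change over the square root of F. The fit was tested on simulated data. No 2 libraries agreed within sampling noise. The overlap of libraries between groups was not counted over all genes. Members, lists and tests were chosen with earlier results of these data known. Values per library were planned for the 5 highest and 5 lowest called members of the baseline, WT 8 h and 8 h interaction comparisons. They were also planned for a set of canonical members, and not all of these values are printed. Other members named were chosen after their values were seen. Alternatives were RLE, library size and ribosomal protein scaling (83 genes), no filter or a CPM filter, a fit of the compared groups, a replicate block, DESeq2 1.42.0 and leaving out each library. The scalings of the ER, mitochondrial, inducible and cochaperone lists were chosen after seeing the data. Depth of 17058419 to 17968827 counts limits genes near 1 CPM, such as Hspa1l and Hspa12b at 8 h.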

Additional observations from a re-analysis of the deposited data

Results flagged for a closer look

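The change over 8 h of actinomycin D differed between KO and WT for 2 members by the interaction term of edgeR. For Dnajb4 the log2 change in KO minus that in WT was -0.30 (adjusted p = 0.00505), and it stayed between -0.38 and -0.24 without any 1 library. For Hspb2 it was -0.45 (adjusted p = 0.00892), between -0.54 and -0.36 without any 1 library. Hspb2 had 20.3 to 20.6 counts per 1000 counts of the overlapping Cryab in WT at baseline and 20.1 to 27.1 at 8 h, against 23.2 to 29.3 and 17.6 to 22.7 in KO.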

How the results depend on the processing

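Of 1440 values of named members under the alternatives, 1325 kept their direction and side of the threshold, 34 passed it newly, 45 lost it and 36 reversed. Each reversal came with library size alone or with ribosomal protein scaling, which move the median of all genes by construction. Between genotypes at baseline, Dnaja1 was -0.20 with library size and -0.33 with ribosomal protein scaling, Dnajb4 -0.02 and -0.14, Hsp90ab1 -0.09 and -0.21, Hspa8 -0.10 and -0.22, Hspa9 -0.10 and -0.22, Hspb7 -0.04 and -0.17, and Dnajc2 -0.22 with the latter. In WT at 8 h, Hspa5 and Hspb8 were -0.09 and -0.14 with library size. With ribosomal protein scaling Dnajb11 was -0.40, Dnajb6 -0.60, Dnajb9 -0.43, Dnajc12 -0.17, Dnajc15 -0.20, Dnajc2 -0.16, Dnajc21 -0.06, Dnajc3 -0.54, Dnajc4 -0.13, Hsp90aa1 -0.41, Hsp90ab1 -0.21, Hsp90b1 -0.34, Hspa5 -0.54, Hspa9 -0.42, Hspb2 -0.17, Hspb6 -0.27, Hspb7 -0.32, Hspb8 -0.59, Hspd1 -0.37, Hspe1 -0.28 and Hsph1 -0.36.

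Counts of members called moved by over 1.5 times in these cases, and the cause was not tested. With ribosomal protein scaling they were 47 for KO against WT at 4 h, 9 for WT at 4 h, 50 for WT from 4 to 8 h, 11 for KO at 4 h and 19, all positive, for the 8 h interaction. With library size alone they were 11 for WT at 4 h, 15 for KO at 4 h, 20 for KO at 8 h and 1 for the 8 h interaction. WT at 4 h had 13 with no filter and 14 in a fit of the compared groups. Without any 1 library the counts ran from 29 to 34, 23 to 29 and 26 to 28 for KO against WT at baseline, 4 and 8 h, from 14 to 23, 39 to 42 and 7 to 15 for WT at 4 h, 8 h and 4 to 8 h, from 18 to 24, 31 to 39 and 4 to 6 in KO, and were 0 for the 4 h and 2 to 11 for the 8 h interaction.

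With the replicate number as a block the counts were 36, 31 and 30 for KO against WT, 29, 44 and 13 in WT, 24, 38 and 8 in KO, and 0 and 3 for the interactions. Libraries of equal number did not deviate together: the correlations ran from -0.0469 to 0.0382 over 40 pairs. These correlations cover only pairs of equal number, so they cannot tell whether libraries share an animal or a batch.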
